A study of Mus musculus with 8 samples.

Results

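Neuroendocrine genes were examined in 4 subsets of mouse medullary thymic epithelial cells (mTECs). The 8 genes are the transcription factors Insm1 and Neurod1, the granins Chga, Chgb, Scg2 and Scg3, the prohormone convertase Pcsk1 and the membrane fusion protein Snap25. They were taken by name from the 25466 genes of the count table, and all 8 were found by their Ensembl identifiers. The cells came from thymi of wild-type BL6N6 mice, 4 to 6 weeks old, and no treatment or transgene is named for any subset. They were sorted by FACS as CD45neg Epcampos CDR1neg cells and divided by surface Tspan8, an exemplary tissue-restricted antigen, and by MHCII, which rises in mature mTECs and is low again in late ones. The subsets are Tspan8neg MHCIIlo, Tspan8neg MHCIIhi, Tspan8pos MHCIIhi and Tspan8pos MHCIIlo, with 2 biological replicates each. Each subset is a sort gate that holds several kinds of mTEC.

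Neuroendocrine cells of gut, lung and islet store peptide hormones in dense core granules and release them when calcium rises. Basic helix-loop-helix factors such as Neurog3 and Neurod1 start the program together with the zinc finger factor Insm1, the granins help to form the granules, convertases cut the prohormones inside them, and SNARE proteins such as Snap25 fuse the granule with the cell membrane. Mimetic cells are mTECs that take on such a program of a peripheral tissue, and in the thymus their products can serve as self-antigens. In bulk libraries, fewer cells of a type and less RNA per cell cannot be told apart.

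The genes lie apart in the genome (GRCm38). Insm1 occupies chr2:146221921-146225020, Neurod1 chr2:79452521-79456751, Chgb chr2:132781278-132795079 and Snap25 chr2:136713453-136782428, all on chromosome 2. Chga is at chr12:102554969-102565028, Scg2 at chr1:79434669-79440120, Scg3 at chr9:75643189-75684056 and Pcsk1 at chr13:75089826-75134861. Counts of Neurod1, Snap25 and Scg3 are uncertain, because Neurod1 overlaps Cerkl on the same strand and Gm26755 on the opposite strand, Snap25 overlaps the opposite-strand gene Gm14053 and Scg3 overlaps Gm37871.

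The promoters of the granule genes are shown because they carry the same short element. RefSeq promoter windows (GRCm38.p6) were matched for 6 of the 8 genes, and the 250 bases before the annotated start were searched on both strands. Insm1 and Snap25 had no entry. The cAMP response element, TGACGTCA, was found in 3 of the 6 windows (Chgb, Pcsk1 and Scg2) and in 1.55% of 32851 windows of the same length. Its shorter core TGACG, which is contained in the full element, was found in 5 of the 6, the same genes plus Chga and Scg3, and in 17.8% of all windows. In the following 30-base stretches, read 5′ to 3′ on the strand of the gene, capitals mark the full element in Chgb, Scg2 and Pcsk1 and the shorter core in Chga and Scg3.
Chga, chr12:102554885-102554914, plus strand: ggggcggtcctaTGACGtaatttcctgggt
Chgb, chr2:132781559-132781588, plus strand: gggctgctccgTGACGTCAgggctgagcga
Scg2, chr1:79440076-79440105, minus strand: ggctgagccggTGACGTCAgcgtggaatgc
Scg3, chr9:75684069-75684098, minus strand: gcgctgggtcgcTGACGccatcctcacgcc
Pcsk1, chr13:75089768-75089797, plus strand: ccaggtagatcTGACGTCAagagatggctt
The stretches of Chgb and Scg2 lie inside the gene as GENCODE draws it, since that annotation starts both genes farther upstream than RefSeq does. No window of the 6 held TATAAA (12.4% of all windows), the NeuroD-type E-box CAGATG (14.4%) or TTCAGCACC, the left part of the REST element (0.301%). These matches describe letters in the windows, and binding was not measured in the data used here.

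Levels are given as CPM, the read count scaled to a common library size after TMM normalization, and levels of different genes are compared per kilobase of exon (RPKM). Library totals ran from 1941518 to 7783841 counts, so that a floor of 3 counts corresponded to 0.385 to 1.55 CPM. Differences are log2 fold changes with their standard error (SE) from edgeR's quasi-likelihood test, fitted to all 8 libraries. Of the 17006 genes tested, those with a Benjamini-Hochberg adjusted p under 0.01 that moved by 1 or more on the log2 scale were called. The RNA of the sorting markers followed the labels. H2-Ab1 was higher in MHCIIhi than in MHCIIlo libraries at each Tspan8 level, though Tspan8neg MHCIIlo (2074 and 1700 CPM) lay near Tspan8pos MHCIIhi (2431 and 2619 CPM). Tspan8 lay between 347 and 404 CPM in Tspan8pos libraries and between 3.65 and 14.6 CPM in Tspan8neg libraries.

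The group split into a set of granule genes that was highest in Tspan8neg MHCIIlo mTECs and the factor Insm1, which was highest in Tspan8neg MHCIIhi mTECs. Chga, Chgb, Snap25, Scg2 and Scg3 had both Tspan8neg MHCIIlo libraries above the other 6 libraries. That is 5 of the 8 genes, and of all genes tested 17.8% had this order. For Insm1 both Tspan8neg MHCIIhi libraries lay above the other 6, an order found in 18.7% of genes tested. Insm1 and Pcsk1 had both Tspan8pos MHCIIlo libraries below the other 6 (10.9% of genes tested). The summed level of the 8 genes was 720.4 ± 157 CPM (SD, n = 2) in Tspan8neg MHCIIlo, 274 ± 6.73 in Tspan8neg MHCIIhi, 136 ± 27.8 in Tspan8pos MHCIIhi and 101 ± 8.44 in Tspan8pos MHCIIlo.

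**Figure D1:**
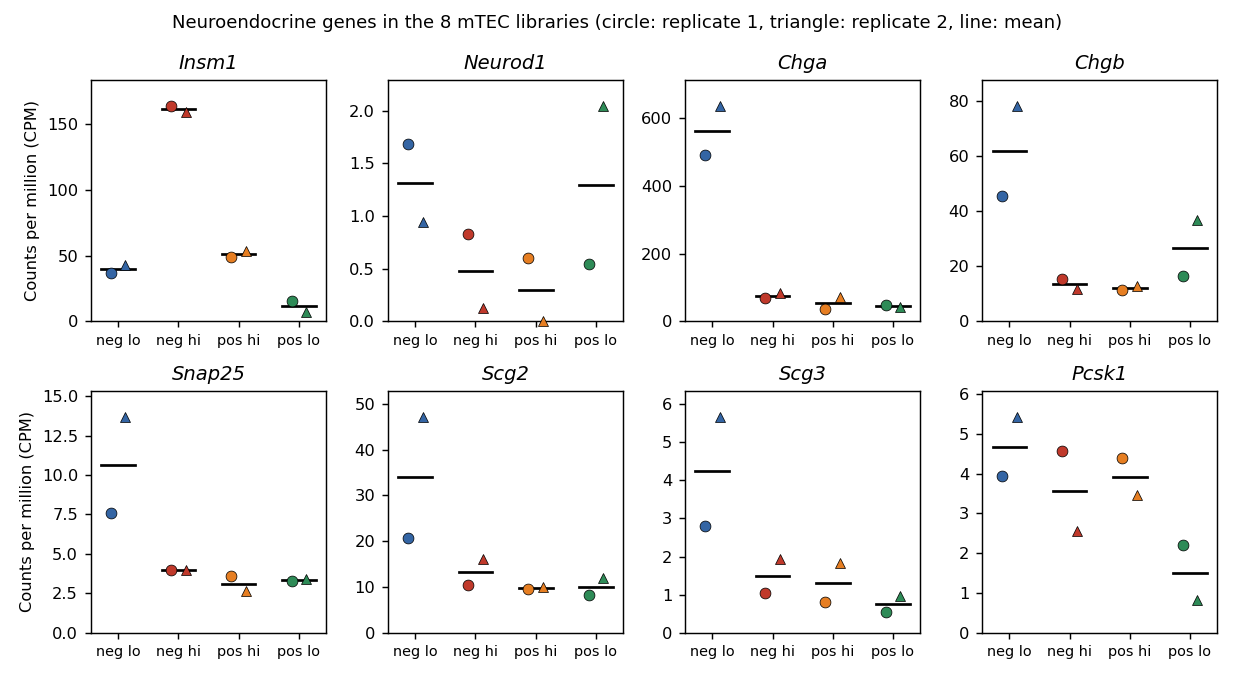
Level of each of the 8 genes in CPM (vertical axis, linear and from 0) in the 4 subsets, named on the horizontal axis by Tspan8 (neg or pos) and MHCII (lo or hi). Circles are replicate 1, triangles replicate 2 and lines the mean of both. Insm1 peaks at 164 and 159 CPM in Tspan8neg MHCIIhi, whereas Chga peaks at 490.1 and 637 CPM in Tspan8neg MHCIIlo.

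Insm1, the zinc finger repressor that is needed for endocrine cells to form in pancreas and gut, was the one transcription factor of the group with a substantial level. It measured 37.1 and 43.1 CPM in Tspan8neg MHCIIlo, 164 and 159 CPM in Tspan8neg MHCIIhi, 49.2 and 53.6 CPM in Tspan8pos MHCIIhi, and 15.4 and 7.51 CPM in Tspan8pos MHCIIlo. The libraries of the 4 subsets did not overlap. Tspan8neg MHCIIhi stood highest, Tspan8pos MHCIIlo lowest, and the middle pair, Tspan8pos MHCIIhi and Tspan8neg MHCIIlo, differed by a log2 fold change of 0.36 (SE 0.21, adjusted p = 0.19, edgeR).

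Insm1 rose with MHCII at both Tspan8 levels and fell with Tspan8 at both MHCII levels. The log2 fold change from MHCIIlo to MHCIIhi was 2.00 (SE 0.21, adjusted p = 2.84e-05) within Tspan8neg and 2.39 (SE 0.26, adjusted p = 0.000109) within Tspan8pos mTECs by edgeR. From Tspan8neg to Tspan8pos, Insm1 changed by -2.03 (SE 0.26, adjusted p = 0.000111, edgeR) in MHCIIlo and by -1.65 (SE 0.20, adjusted p = 8.06e-05, edgeR) in MHCIIhi mTECs. All 4 calls were kept without any single library. The difference between the Tspan8 effects at the MHCII levels was -0.38 (SE 0.33) with an adjusted p of 0.51 by edgeR, and its sign turned without replicate 2 of Tspan8pos MHCIIlo (0.26) and with all libraries thinned to the smallest total (0.31). Aire, the regulator that drives tissue-restricted antigens in mature mTECs, measured 212 and 205 CPM in Tspan8neg MHCIIlo, 2658 and 2476 in Tspan8neg MHCIIhi, 402 and 541 in Tspan8pos MHCIIhi, and 14.8 and 35.4 in Tspan8pos MHCIIlo, which puts the subsets in the same order as Insm1.

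Neurod1, a basic helix-loop-helix factor that acts downstream of Neurog3 in endocrine cells, was near the detection floor. Its counts were 6 and 4 in Tspan8neg MHCIIlo, 4 and 1 in Tspan8neg MHCIIhi, 3 and 0 in Tspan8pos MHCIIhi, and 1 and 15 in Tspan8pos MHCIIlo. Only 4 of the 8 libraries exceeded 3 counts, the subsets overlapped, and the gene did not pass the filter on low counts, so it was not tested. A difference in Neurod1 between subsets was not detectable at this depth.

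Chga, the acidic granin stored in most neuroendocrine granules, had the highest level of the 8 genes in CPM in Tspan8neg MHCIIlo and, for 1 sorting marker at a time, the largest fold change. It measured 490.1 and 637 CPM in Tspan8neg MHCIIlo, 69.5 and 83.7 CPM in Tspan8neg MHCIIhi, 36.8 and 71.3 CPM in Tspan8pos MHCIIhi, and 48.4 and 43.5 CPM in Tspan8pos MHCIIlo. The subset means were 564 ± 104, 76.6 ± 10.1, 54.1 ± 24.4 and 46.0 ± 3.41 CPM in that order (SD, n = 2). Only the step from Tspan8neg MHCIIlo to the next subset was called, and the replicates of Tspan8pos MHCIIhi spanned from below both Tspan8pos MHCIIlo libraries to above the lower Tspan8neg MHCIIhi library. Chga supplied 80.4% and 76.6% of the summed counts of the 8 genes in Tspan8neg MHCIIlo, against 25.8% to 45.8% in the 4 MHCIIhi libraries and 50.9% and 40.7% in Tspan8pos MHCIIlo.

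The fold change of Chga depended on the other marker. In MHCIIlo mTECs it was 12.4-fold lower in Tspan8pos than in Tspan8neg cells (log2 fold change -3.63, SE 0.28, adjusted p = 2.56e-06, edgeR), and in MHCIIhi mTECs the log2 fold change was -0.51 (SE 0.26) with an adjusted p of 0.147 by edgeR. Within Tspan8neg mTECs it fell from MHCIIlo to MHCIIhi by 2.88 on the log2 scale (SE 0.26, adjusted p = 1.24e-05, edgeR), and within Tspan8pos mTECs the change was 0.25 (SE 0.27, adjusted p = 0.608). The difference between the Tspan8 effects at the MHCII levels was -3.12 (SE 0.37, adjusted p = 0.000674, edgeR interaction), which made Chga the one gene of the 8 called in the interaction, where 4.60% of all genes were called. Without replicate 2 of Tspan8pos MHCIIlo the interaction was -3.04 with an adjusted p of 0.0114 by edgeR, so the call was lost. Without replicate 2 of Tspan8pos MHCIIhi the difference in MHCIIhi mTECs became -1.05 and was called.

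Chgb, a second acidic granin of the granule core, was highest in the same subset as Chga, at a lower level. It measured 45.5 and 78.3 CPM in Tspan8neg MHCIIlo, 15.4 and 11.9 in Tspan8neg MHCIIhi, 11.6 and 13.0 in Tspan8pos MHCIIhi, and 16.5 and 36.9 in Tspan8pos MHCIIlo. Its second highest subset was Tspan8pos MHCIIlo, whose replicates differed 2.24-fold. Chgb fell from MHCIIlo to MHCIIhi within Tspan8neg mTECs by 2.20 on the log2 scale (SE 0.34, adjusted p = 0.000418, edgeR), a call lost without replicate 2 of Tspan8neg MHCIIhi (-1.92, adjusted p = 0.0109). From Tspan8neg to Tspan8pos in MHCIIlo mTECs it differed by -1.10 (SE 0.33), and its adjusted p of 0.0195 by edgeR missed the threshold. That difference was called without replicate 1 of Tspan8neg MHCIIlo (-1.41) or replicate 2 of Tspan8pos MHCIIlo (-1.91), and was -0.63 without replicate 2 of Tspan8neg MHCIIlo and -0.76 without replicate 1 of Tspan8pos MHCIIlo. Within Tspan8pos mTECs the MHCII difference was -1.23 (SE 0.36, adjusted p = 0.0382, edgeR), which was called without either replicate of Tspan8neg MHCIIlo (-1.24 and -1.26) but shrank to -0.42 without replicate 2 of Tspan8pos MHCIIlo.

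Scg2, the secretogranin from which the peptide secretoneurin is cut, measured 20.8 and 47.2 CPM in Tspan8neg MHCIIlo, 10.4 and 16.2 in Tspan8neg MHCIIhi, 9.56 and 9.96 in Tspan8pos MHCIIhi, and 8.24 and 11.9 in Tspan8pos MHCIIlo. It fell from Tspan8neg to Tspan8pos in MHCIIlo mTECs by 1.68 on the log2 scale (SE 0.39, adjusted p = 0.00502, edgeR). This call was lost without replicate 2 of Tspan8neg MHCIIlo (-0.96, adjusted p = 0.0403 by edgeR), replicate 2 of Tspan8pos MHCIIhi (-1.68), replicate 1 of Tspan8pos MHCIIlo (-1.53) or replicate 2 of Tspan8pos MHCIIlo (-2.05). The MHCII difference within Tspan8neg mTECs was -1.34 (SE 0.36), with an adjusted p of 0.0113 by edgeR. It was called without replicate 1 of Tspan8neg MHCIIlo (-1.81) and was -0.63 without replicate 2 of that subset (adjusted p = 0.141, edgeR).

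Scg3 encodes a secretogranin that binds Chga and holds it at the granule membrane. It was low, at 2.81 and 5.66 CPM in Tspan8neg MHCIIlo, 1.04 and 1.92 in Tspan8neg MHCIIhi, 0.797 and 1.83 in Tspan8pos MHCIIhi, and 0.550 and 0.956 in Tspan8pos MHCIIlo. The last of these subsets rested on 1 and 7 counts. The log2 fold change between the MHCIIlo subsets was -2.31 (SE 0.76, adjusted p = 0.0308, edgeR), and no contrast of Scg3 was called.

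Pcsk1, the convertase that makes the first cuts in prohormones, did not share the granin pattern. It measured 3.93 and 5.42 CPM in Tspan8neg MHCIIlo, 4.58 and 2.56 in Tspan8neg MHCIIhi, 4.38 and 3.45 in Tspan8pos MHCIIhi, and 2.20 and 0.819 in Tspan8pos MHCIIlo. The first 3 subsets overlapped and both libraries of the fourth lay below them. The difference between the MHCIIlo subsets was -1.94 (SE 0.65, adjusted p = 0.0327, edgeR) and that between MHCII levels within Tspan8pos mTECs was 1.68 (SE 0.65, adjusted p = 0.104), neither of them called.

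Snap25, the SNARE of the cell membrane that granules fuse with, measured 7.58 and 13.7 CPM in Tspan8neg MHCIIlo. It lay at 3.95 and 3.97 CPM in Tspan8neg MHCIIhi, 3.58 and 2.64 in Tspan8pos MHCIIhi, and 3.30 and 3.41 in Tspan8pos MHCIIlo, so 6 libraries kept within a narrow range. Its differences from Tspan8neg MHCIIlo were -1.66 in Tspan8pos MHCIIlo (SE 0.44, adjusted p = 0.0112, edgeR) and -1.43 in Tspan8neg MHCIIhi (SE 0.41, adjusted p = 0.0156, edgeR), both short of the threshold. Without replicate 1 of Tspan8neg MHCIIlo both were called (-2.02 and -1.79), and without replicate 2 they were -1.16 and -0.94 and were not.

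Over the main contrasts, 3 of the 8 genes were called lower in Tspan8pos than in Tspan8neg MHCIIlo mTECs (Chga, Insm1 and Scg2) and none higher, where 9.34% of all genes tested were called lower and 12.1% higher. The median log2 fold change of the 7 tested genes was -1.94, against -0.03 over all genes. In MHCIIhi mTECs 1 gene (Insm1) was called lower in Tspan8pos cells, beside 7.45% of all genes, and the median was -0.34. Between MHCII levels within Tspan8neg mTECs, Insm1 was called higher and Chga and Chgb lower in MHCIIhi cells, beside 13.1% of all genes higher and 9.67% lower. Within Tspan8pos mTECs, Insm1 was called higher (4.59% of all genes), and the median was 0.25.

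**Figure D2:**
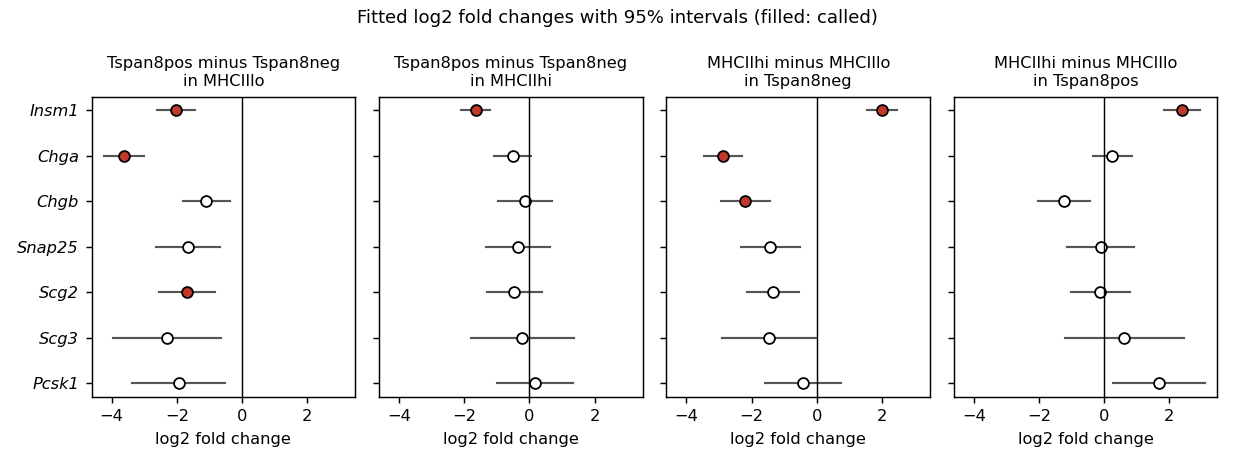
Fitted log2 fold change (horizontal axis) of the 7 tested genes in the 4 contrasts, with 95% intervals, filled where called. Insm1 lies at 2.00 and 2.39 in the MHCII contrasts, opposite to Chga at -2.88 in the Tspan8neg one, and Chgb, Scg3, Snap25 and Scg2 lie between -2.20 and -1.34 there.

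Across the diagonal, 4 genes were called lower in Tspan8pos MHCIIhi than in Tspan8neg MHCIIlo mTECs, namely Chga (-3.38), Chgb (-2.34), Scg2 (-1.81) and Snap25 (-1.77), where 10.3% of genes tested were lower. The same contrast gave 0.36 for Insm1. Between Tspan8pos MHCIIlo and Tspan8neg MHCIIhi mTECs, only Insm1 was called, with -4.04 (SE 0.25, adjusted p = 3.09e-07, edgeR), where 14.6% of genes tested were lower.

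Per kilobase of exon, the order of the genes changed with the subset. In Tspan8neg MHCIIlo the mean RPKM was 204 for Chga, 22.6 for Chgb, 13.5 for Scg2, 12.9 for Insm1, 1.57 for Snap25, 1.55 for Scg3, 0.835 for Pcsk1 and 0.482 for Neurod1. In Tspan8neg MHCIIhi Insm1 (52.0 RPKM) exceeded Chga (27.8 RPKM), and in Tspan8pos MHCIIlo Insm1 (3.69 RPKM) lay below Chga (16.7 RPKM) and Chgb (9.73 RPKM).

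Over the 8 libraries, which are 4 subsets of 2, the log2 CPM values of Chga, Chgb, Snap25, Scg2 and Scg3 correlated with one another with Pearson's r between 0.675 and 0.947. Insm1 had r between -0.41 and 0.24 with these 5 genes and 0.656 with Pcsk1. These coefficients describe the subset means as much as the replicates. Among 13062 candidate genes, the nearest pattern to Insm1 was that of Ostc (r = 0.993), followed by Adcy1 and Cdh4. Nearest to Chga were Noc4l (r = 0.992), Ighg2c (0.989), which encodes an immunoglobulin heavy chain, and Mrtfa, and nearest to Chgb was Cntrl (0.993). The nearest gene was Isy1 for Snap25 (0.983), Cdyl2 for Scg2 (0.986), Coro1a for Scg3 (0.980) and Abt1 for Pcsk1 (0.978).

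Summed thymocyte, cortical epithelium, and fibroblast and endothelium markers had their highest mean in Tspan8neg MHCIIlo, as the granule genes did. The mean sum of B cell and dendritic cell markers was 45.3 CPM there and 46.4 CPM in Tspan8neg MHCIIhi. The 7 thymocyte markers (Ptprc, Cd3e, Cd3d, Cd4, Cd8a, Rag1 and Lck) were above 0 in every library although CD45 was gated out. Their summed level was 355 and 993 CPM in Tspan8neg MHCIIlo, 64.7 and 133 in Tspan8neg MHCIIhi, 70.7 and 98.7 in Tspan8pos MHCIIhi, and 117 and 201 in Tspan8pos MHCIIlo. In Tspan8neg MHCIIlo the sum was 2.79-fold higher in replicate 2 than in replicate 1. In the same pair, the ratio of replicate 2 to replicate 1 was 1.16 for Insm1, 1.30 for Chga, 1.38 for Pcsk1, 1.72 for Chgb, 1.803 for Snap25, 2.01 for Scg3 and 2.27 for Scg2. It was 0.560 for Neurod1, on 6 and 4 counts. In Tspan8neg MHCIIhi, Tspan8pos MHCIIhi and Tspan8pos MHCIIlo the thymocyte sum was 2.06-, 1.40- and 1.72-fold higher in replicate 2. Ratios of the genes above 3 counts in both replicates ran from 0.560 to 1.85, 0.737 to 2.30 and 0.373 to 2.24 in that order. Without replicate 2 of Tspan8neg MHCIIlo, Chga and Insm1 remained called lower in Tspan8pos MHCIIlo, 2 of the 8 genes, and Chga, Chgb and Insm1 remained called between MHCII levels in Tspan8neg mTECs. Without replicate 1 of that subset, more of the 8 genes were called in each of these contrasts than in the main analysis. The share of all genes called was not calculated for either fit. Other marker sums also differed within that pair, at 102 and 210 CPM for the 3 cortical epithelium markers, 149 and 209.6 for the 5 fibroblast and endothelium markers, and 27.0 and 63.7 for the 6 B cell and dendritic cell markers. In Tspan8neg MHCIIhi these sums were 102 and 121, 124 and 127, and 41.4 and 51.4 CPM. From MHCIIlo to MHCIIhi in Tspan8neg mTECs, 9.67% of all genes tested were called lower and 13.1% higher. In that contrast 5 of 7 thymocyte and 4 of 5 fibroblast and endothelium markers were called lower. Called higher were 1 fibroblast and endothelium marker and 1 of 6 B cell and dendritic cell markers, and no cortical epithelium marker was called. The part of RNA from these cells in the levels of the granule genes was not tested. The 7 Tuft cell markers had another order, with 977 and 1309 CPM in Tspan8neg MHCIIlo and 5624 and 5759 CPM in Tspan8pos MHCIIlo.

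Of the neuron markers, Rbfox3 had 1 and 1 counts in the Tspan8neg MHCIIlo libraries, and Th had 3 and 1. The summed level of the 9 neuron markers was 103 and 90.1 CPM there, 110 and 122 in Tspan8neg MHCIIhi, 114 and 117 in Tspan8pos MHCIIhi, and 153 and 182 in Tspan8pos MHCIIlo. Map2 supplied 83.4 and 61.8 CPM of the sum in Tspan8neg MHCIIlo. Of the 4 Schwann cell and glia markers, Sox10 had 2 and 1 counts in Tspan8neg MHCIIlo, and the sum of the 4 was 5.06 and 6.84 CPM. That sum was 17.9 and 20.0 CPM in Tspan8neg MHCIIhi, 3.58 and 6.91 in Tspan8pos MHCIIhi, and 4.40 and 4.91 in Tspan8pos MHCIIlo. Neither sum was highest in the subset where the granins were. Several of these markers were highest in the subset where Insm1 was. From MHCIIlo to MHCIIhi in Tspan8neg mTECs, 4 of the 8 neuron markers tested were called higher and 1, Map2, lower, and 3 of the 4 glia markers were called higher (13.1% and 9.67% of all genes). The 4 neuron markers, named after their values were seen, were Th, Rbfox3, Nefm and Elavl3, and Nefm measured 3.65 and 8.72 CPM in Tspan8neg MHCIIlo and 26.4 and 30.5 CPM in Tspan8neg MHCIIhi. The part of neuron and glia RNA in the level of Insm1 was not tested.

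The other 14 neuroendocrine transcription factors included 9 that could be tested. Isl1, a LIM homeodomain factor of endocrine cells and motor neurons, fell with Tspan8 by 1.42 in MHCIIlo mTECs. St18, a zinc finger factor of the Myt family, fell with MHCII by 2.56 in Tspan8neg mTECs. It rose with Tspan8 by 1.18 in MHCIIlo and by 1.66 in MHCIIhi mTECs, both calls lost in some fits that left out 1 library. Its mean was highest in Tspan8pos MHCIIlo, at 46.4 CPM against 20.5 CPM in Tspan8neg MHCIIlo. Neurog3, which starts the endocrine program in pancreas and gut, had 11 and 23 counts in Tspan8neg MHCIIhi and at most 1 count in each other library. In all, 3 of the 9 tested were called lower and 1 higher with Tspan8 in MHCIIlo mTECs, beside 9.34% and 12.1% of all genes. With MHCII in Tspan8neg mTECs, 3 were called lower and none higher, beside 9.67% and 13.1% of all genes.

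The remaining granule genes were mixed. Of 12 other cargo and processing genes, 10 were tested, and 4 were called higher and 2 lower in MHCIIhi than in MHCIIlo Tspan8neg mTECs (13.1% and 9.67% of all genes). Vgf, a granin-like peptide precursor, measured 9.27 and 18.4 CPM in Tspan8neg MHCIIlo, 83.2 and 90.5 in Tspan8neg MHCIIhi, 23.1 and 27.2 in Tspan8pos MHCIIhi, and 3.30 and 4.37 in Tspan8pos MHCIIlo. It rose with MHCII by 2.63 in Tspan8neg mTECs (SE 0.25, adjusted p = 1.86e-05, edgeR), and its subset means stood in the order of those of Insm1. Slc18a1, which loads monoamines into granules, rose by 3.32 in the same contrast, from 3.37 and 7.07 to 53.4 and 53.6 CPM. Ptprn2, a membrane protein of the dense core granule, fell with MHCII in Tspan8neg mTECs by 1.51 (SE 0.24, adjusted p = 0.000475, edgeR), from 48.3 and 71.4 to 16.2 and 25.3 CPM, and measured 48.9 and 52.1 CPM in Tspan8pos MHCIIlo. Cpe, the carboxypeptidase that trims prohormones, went the other way with Tspan8 and rose by 1.48 in MHCIIlo and by 2.41 in MHCIIhi mTECs.

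Of 19 other exocytosis genes, 18 were tested, and in Tspan8neg mTECs 3 were called higher and 2 lower in MHCIIhi cells, shares near the 13.1% and 9.67% of all genes. Cplx2, a complexin that binds the SNARE complex, was highest where the granins were, at 58.7 and 62.2 CPM in Tspan8neg MHCIIlo and 12.7 to 22.7 CPM in the other 6 libraries. It fell with MHCII in Tspan8neg mTECs by 1.48 and with Tspan8 in MHCIIlo mTECs by 1.61. The first call was lost without replicate 2 of Tspan8neg MHCIIhi (-1.33) and the second without replicate 2 of Tspan8pos MHCIIlo (-1.42). Syt1, a calcium sensor of vesicle fusion, rose by 1.79 within Tspan8neg (SE 0.14, adjusted p = 5.54e-06, edgeR) and by 1.26 within Tspan8pos mTECs. Cadps, which primes granules for release, rose by 2.32 and by 2.17. Its relative Cadps2 rose with Tspan8 by 1.30 in MHCIIlo mTECs and fell with MHCII by 1.28 in Tspan8pos mTECs.

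Most of the 19 hormone genes of gut, islet and lung endocrine cells were called higher in MHCIIhi than in MHCIIlo Tspan8neg mTECs. Of the 18 tested, 13 were called higher and none lower within Tspan8neg mTECs (13.1% and 9.67% of all genes), with a median log2 fold change of 2.77. Within Tspan8pos mTECs, 11 were called higher and none lower (4.59% and 2.62% of all genes). Gip, an incretin of the gut, had 0 counts in both Tspan8neg MHCIIlo libraries and 17.3 and 22.9 CPM in Tspan8neg MHCIIhi, which is at least 24.6-fold higher, taking 3 counts per library as the floor. Nts, which encodes neurotensin, measured 0.562 and 0.236 CPM in Tspan8neg MHCIIlo and 42.6 and 49.1 in Tspan8neg MHCIIhi. Grp, the bombesin-like peptide of lung neuroendocrine cells, was at 16.3 and 14.9 CPM in Tspan8neg MHCIIlo and 2 and 3 counts in Tspan8pos MHCIIlo. It was called lower there, as was Cck, which encodes cholecystokinin (14 and 8 against 0 and 1 counts). With Tspan8 in MHCIIlo mTECs, 3 of the 18 tested hormone genes were called higher, including Nts (3.03), and 2 lower. Of all genes, 12.1% were called higher and 9.34% lower in that contrast. The calls of Cck and Nts were each lost in some fits that left out 1 library. Ghrl, the ghrelin gene, named after its values were seen, had the opposite direction with MHCII in Tspan8neg mTECs, at 5.90 and 14.4 CPM in MHCIIlo and 1.66 and 3.08 CPM in MHCIIhi cells, and was not called (-2.05, adjusted p = 0.0165, edgeR). The hormone sum was 184 and 183 CPM in Tspan8neg MHCIIlo, where the granins were highest, and 1026 and 973 CPM in Tspan8neg MHCIIhi. Calcb, named after its values were seen, supplied a mean of 89.6 CPM of the sum in Tspan8neg MHCIIlo and 599.5 CPM in Tspan8neg MHCIIhi.

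**Figure D3:**
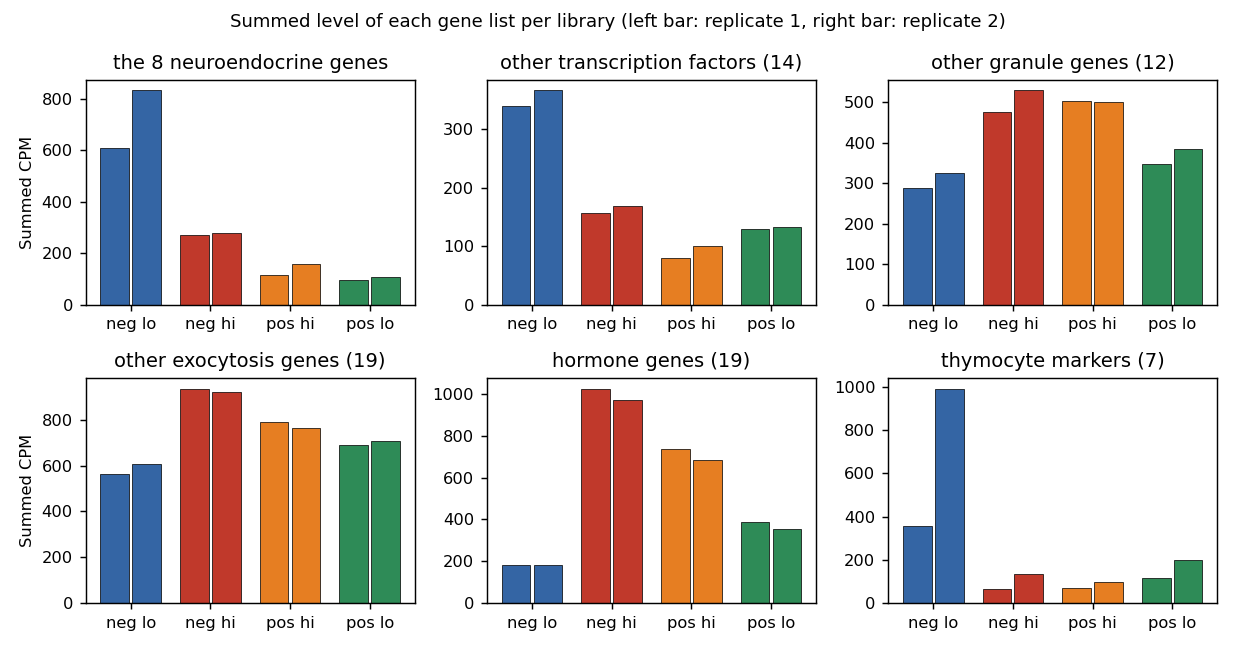
Summed CPM (vertical axis, linear and from 0) of the 8 genes, of 4 related lists and of the thymocyte markers in each library, with the number of genes in brackets, replicate 1 as the left and replicate 2 as the right bar of each subset. The 8 genes peak at 610 and 831 CPM in Tspan8neg MHCIIlo, as the thymocyte markers do at 355 and 993 CPM. The hormone genes peak at 1026 and 973 CPM in Tspan8neg MHCIIhi, where Calcb alone has a mean of 599.5 CPM.

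**Figure D4:**
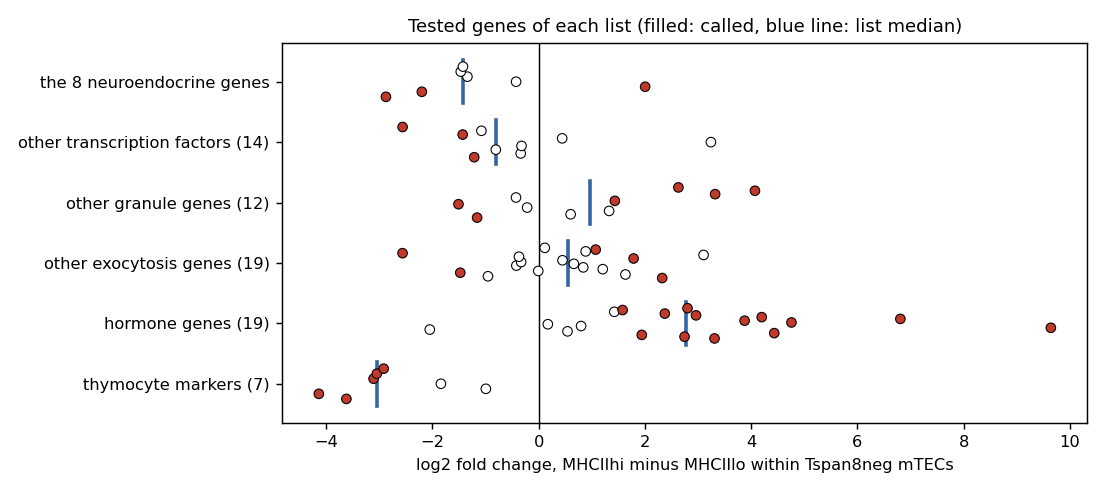
Fitted log2 fold change from MHCIIlo to MHCIIhi within Tspan8neg mTECs (horizontal axis) for each tested gene of 6 lists, filled where called, with the list median as a blue line. The medians are -1.43 for the 7 tested neuroendocrine genes, 2.77 for the hormone genes and -3.05 for the thymocyte markers. Fitted values of genes with counts near 0 in 1 subset, such as Gip, are not bounds.

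Both repressors examined were lowest in mean in Tspan8neg MHCIIhi, where Insm1 was highest. Hes1, the Notch target that holds back Neurog3, measured 41.9 and 54.2 CPM in Tspan8neg MHCIIlo, 10.4 and 12.05 in Tspan8neg MHCIIhi, 52.8 and 65.0 in Tspan8pos MHCIIhi, and 58.3 and 81.4 in Tspan8pos MHCIIlo. It fell with MHCII by 2.09 in Tspan8neg mTECs (SE 0.23, adjusted p = 4.09e-05, edgeR) and rose with Tspan8 by 2.38 in MHCIIhi mTECs. Rest, which silences neuronal and granule genes outside neural cells, measured 59.3 and 46.0 CPM in Tspan8neg MHCIIlo and 22.5 and 16.0 in Tspan8neg MHCIIhi. It fell by 1.47 there (SE 0.25, adjusted p = 0.000713, edgeR), a call lost without replicate 2 of Tspan8neg MHCIIhi (-1.14, adjusted p = 0.0207). In Tspan8neg MHCIIlo, where the granins were highest, Rest was at its highest mean of 52.6 ± 9.40 CPM (SD, n = 2).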

How the data were processed

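RNA-seq of 8 libraries of sorted mTECs was analysed, 2 biological replicates of each of 4 subsets, grouped by the sample titles. Estimated counts for every gene and library, as whole numbers with no normalization, were deposited by the authors in 1 table, each gene above 0 in at least 2 libraries. According to the study's methods, these came from 54-base single-end reads assigned by Salmon 1.8.0 to Gencode transcripts after cDNA pre-amplification and tagmentation. A stranded mRNA kit is given in the sample labels, which leaves the use of strand unsettled, and genes with an opposite-strand partner are uncertain. Symbols and coordinates come from GENCODE on GRCm38, a later release than the authors used, and 25336 identifiers (99.49%) matched.

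The fits used edgeR 4.0.16 under R 4.3.3 (TMM, filterByExpr, quasi-likelihood F test, 1 mean per subset, all 8 libraries, two-sided, common dispersion 0.024). Each SE was taken as the size of the log2 fold change over the root of its F statistic. An exact permutation of 2 libraries against 2 could not give less than p = 0.333 and was not used. Reads were amplified and carry no molecular identifiers, so floors cover counting error only, and p-values measure the spread between 2 libraries of a subset. Replicates differed by more than sampling noise (chi-square per gene 3.29 to 9.84). A fold against a subset with both libraries at 0 is a lower bound, set against 3 counts per library. The fit was also run on simulated counts, drawn with 1 dispersion of 0.024 for every gene. Spread that differs between genes or subsets was not simulated, so that run gives no error rate for these data.

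The 8 genes, the related lists and the marker lists were chosen with earlier results of these data known. Named list genes were those called in at least 1 of the 4 one-factor contrasts, at most 6 per list by absolute log2 fold change. The genes of like pattern had the highest Pearson correlation of log2 CPM (prior count 2) among tested genes averaging 5 CPM or more. The nearest 3 were taken for each of the 7 genes of the 8 that were tested. Alternatives were DESeq2 1.42.0 (Wald test, and its size factors in edgeR), leaving out each library, a replicate block, fitting a contrast on its own 4 libraries, no filter, a filter of 10 counts in 4 libraries, thinning to 1941518 counts, calls by p alone and calls at an adjusted p of 0.05. Other assays of the study were not analysed here. Some genes of the lists are counted in them but not reported here by name.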

Additional observations from a re-analysis of the deposited data

Results flagged for a closer look

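The effect of Tspan8 differed between MHCII levels, tested as the edgeR interaction (the log2 fold change from Tspan8neg to Tspan8pos in MHCIIlo minus that in MHCIIhi mTECs), for Chga among the 8 genes and for 4 of the related genes named. For Chga the difference was -3.12, with a Tspan8 fold change of -3.63 in MHCIIlo and -0.51 in MHCIIhi mTECs, and the call was lost without replicate 2 of Tspan8pos MHCIIlo (-3.04). Slc18a1 gave 2.03, Nts 3.29, Grp -3.41 and Hes1 -1.81, and each of these calls was lost in 5 to 7 of the 8 fits that left out 1 library and when all libraries were thinned to the smallest total. Without any one library the values ran from 1.59 to 2.67 for Slc18a1, from 2.76 to 3.91 for Nts, from -3.87 to -2.47 for Grp and from -2.11 to -1.60 for Hes1, with adjusted p-values up to 0.0462, 0.0347, 0.104 and 0.0247 by edgeR. Nts and Grp have counts near 0 in 1 subset, so their fitted differences depend on the prior count. Groups of 2 libraries are too small for a test of single outlying samples.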

How the results depend on the processing

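With the calls at an adjusted p under 0.05, the number of the 8 genes called rose from 3 to 7 for Tspan8 in MHCIIlo mTECs, from 3 to 5 for MHCII in Tspan8neg mTECs and from 1 to 2 for MHCII in Tspan8pos mTECs. The last count was also 2 with no filter on low counts and with only the 4 libraries of the contrast. Leaving out 1 library at a time gave 2 to 5 genes for Tspan8 in MHCIIlo, 1 to 2 for Tspan8 in MHCIIhi, 2 to 5 for MHCII in Tspan8neg, 1 to 2 for MHCII in Tspan8pos and 0 to 1 for the interaction. The Wald test of DESeq2, its size factors in edgeR and calls by p alone gave the same 5 counts as the main analysis. Shares of all genes called were calculated for the main analysis only. The counts under the looser threshold and the other settings therefore have no such share beside them.

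Whether same-numbered replicates came from the same mice is not given in the sources used here. Their deviations from the subset means correlated by 0.00402 to 0.0924 over all genes, so they were not treated as pairs, although the thymocyte marker sum was higher in replicate 2 in all 4 subsets. With the replicate block, 4, 1, 4, 1 and 1 genes were called in the order above, against 3, 1, 3, 1 and 1 without it. The added calls were Chgb for Tspan8 in MHCIIlo (-1.14) and Scg2 for MHCII in Tspan8neg (-1.32), and Scg2 for MHCII in Tspan8pos changed sign to 0.00884.

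The other changes of sign concerned differences that were not called, and their causes were not tested. Thinning turned the interaction of Insm1 to 0.31 and Tspan8 in MHCIIhi for Chgb to 0.23. Leaving out 1 library at a time, the interaction of Insm1 ran from -0.80 to 0.26. For MHCII in Tspan8pos, the range was -0.30 to 0.67 for Chga, -0.33 to 0.0877 for Snap25, -0.26 to 0.24 for Scg2 and -0.0737 to 1.22 for Scg3. For Tspan8 in MHCIIhi it was -0.90 to 0.28 for Scg3, with 0.25 in another such fit, and -0.30 to 0.53 for Pcsk1. For MHCII in Tspan8neg it was -0.78 to 0.0497 for Pcsk1. Over all alternatives, 470 fold changes of the 8 genes stayed on their side of the threshold, 16 became called, 8 were lost and 12 changed sign. Neurod1, Scg3 and Pcsk1 rest on 34, 75 and 128 counts in all 8 libraries together, which limits what can be shown for them.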
